A study of Homo sapiens with 6 samples.

Results

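The genes of homologous recombination and the Fanconi anemia pathway were followed in the established human line TOV21G, derived from a clear cell carcinoma of the ovary, after a short hairpin RNA against MEX3A. The set holds 39 genes, taken by symbol from a list by function drawn up with earlier results of these data known, out of 42656 rows in the deposited count table, and all 39 have a row. It covers the kinases that signal DNA damage, the proteins that process and repair broken ends, and the proteins that clear crosslinks between DNA strands. All cells were TOV21G transduced with lentivirus at a multiplicity of infection of 50 and collected on day 3. The control arm (shCtrl, genotype WT in the labels) received a scrambled hairpin, and the other arm (shMEX3A) received 1 hairpin against MEX3A, which encodes an RNA-binding protein. Each arm has 3 libraries, and whether the 3 were grown as separate cultures is not stated in the labels. The p-values therefore reflect only how these libraries scatter, which could be technical scatter. The arms thus rest on 1 line and 1 hairpin each.

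Homologous recombination copies a broken stretch of DNA from the sister chromatid, and it works mainly in S and G2 phase. The kinases ATM and ATR sense breaks and stalled forks, nucleases trim the ends, and BRCA2 prepares the exposed strand for pairing with the template, together with BRCA1, PALB2 and further strand exchange factors. In the Fanconi pathway a core complex attaches ubiquitin to FANCD2 and FANCI at a crosslink, which brings in nucleases that cut it loose. Loss of BRCA1 or BRCA2 function is a known cause of ovarian cancer and of sensitivity to platinum and to PARP inhibitors.

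MEX3A itself stood at 68.8, 70.7 and 67.6 CPM (counts scaled to library size, with TMM factors between libraries) in the shCtrl libraries and at 19.6, 21.0 and 22.2 CPM in the shMEX3A libraries. The arms were far apart, with a log2 fold change of -1.72 (SE 0.046, edgeR quasi-likelihood test, adjusted p = 1.52e-28). Library totals ran from 34662635 to 48228216 counts. Of 11 clear cell carcinoma markers 10 were tested, with 5 higher, 4 lower and 1 not called after depletion, so the markers themselves moved. PAX8 had a mean of 192 CPM in shCtrl and 294 CPM in shMEX3A, and SPP1 of 2841 and 1443 CPM. Among the largest changes, TFPI2 was at 3.13, CDH6 at -2.44, ANXA4 at -1.61 and GPX3 at -1.16 on the log2 scale. KRT7 (0.91), ARID1A (0.23) and NAPSA (0.80) were called higher as well. NAPSA did so at levels under 1 CPM, with means of 0.415 CPM in shCtrl and 0.729 CPM in shMEX3A. EPCAM was not called, and MUC16 was not tested for lack of counts. Of 8 leukocyte markers 1 was tested, CD68, which went from 7.07 ± 0.530 to 8.46 ± 0.140 CPM and was called higher, and PTPRC, CD3E and NKG7 were at or near 0, at most 0.0564 CPM in any library. Of 6 endothelial markers the summed level was at most 0.993 CPM, and CDH5 was called higher, at 0.0424 CPM in shCtrl and 0.432 CPM in shMEX3A. The summed level of 8 fibroblast markers was 18.2 to 19.5 CPM in shCtrl and 123 to 133 CPM in shMEX3A, with COL1A1 (3.16) and DCN (0.90) called higher on the log2 scale. COL1A1 went from 13.1 ± 0.730 to 117 ± 5.60 CPM and DCN from 4.86 ± 0.193 to 9.07 ± 0.861 CPM, while PDGFRA, PDGFRB, LUM and FAP were at or near 0. The part of these markers in the results below was not tested.

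Most of the repair genes were lower when MEX3A was depleted. Of the 39 genes 37 had enough counts to be tested, and of these 28 fell and 3 rose at an adjusted p under 0.05 (edgeR), while 6 were not called. Over all 15679 genes tested, 69.7% were called, 35.6% lower and 34.0% higher, so a call alone was common in this comparison. The median log2 fold change of the 37 genes was -0.41, beside -0.01 for all genes tested. The 5 largest falls were in BRCA1, BARD1, FANCI, BRCA2 and EME1, all beyond -0.90 on the log2 scale. BRCA1 alone was called lower at least 2-fold, against 5.56% of all genes tested. The genes that rose were SLX4, RAD51C and CHEK2.

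Levels in the 3 libraries of each arm did not overlap for 32 of the 37 genes, against 72.3% of all genes tested. That holds for all 28 genes that fell and all 3 that rose. The 39 genes together made up 0.0886% ± 0.00122 of each shCtrl library and 0.0643% ± 0.00109 of each shMEX3A library (SD, n = 3 each). Their summed level was 862 to 873 CPM in shCtrl and 645 to 662 CPM in shMEX3A. Because TMM assumes that the bulk of genes stay level, each change is relative to the other genes. In bulk RNA, fewer cells in a phase of the cell cycle and less RNA per cell cannot be told apart.

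**Figure D1:**
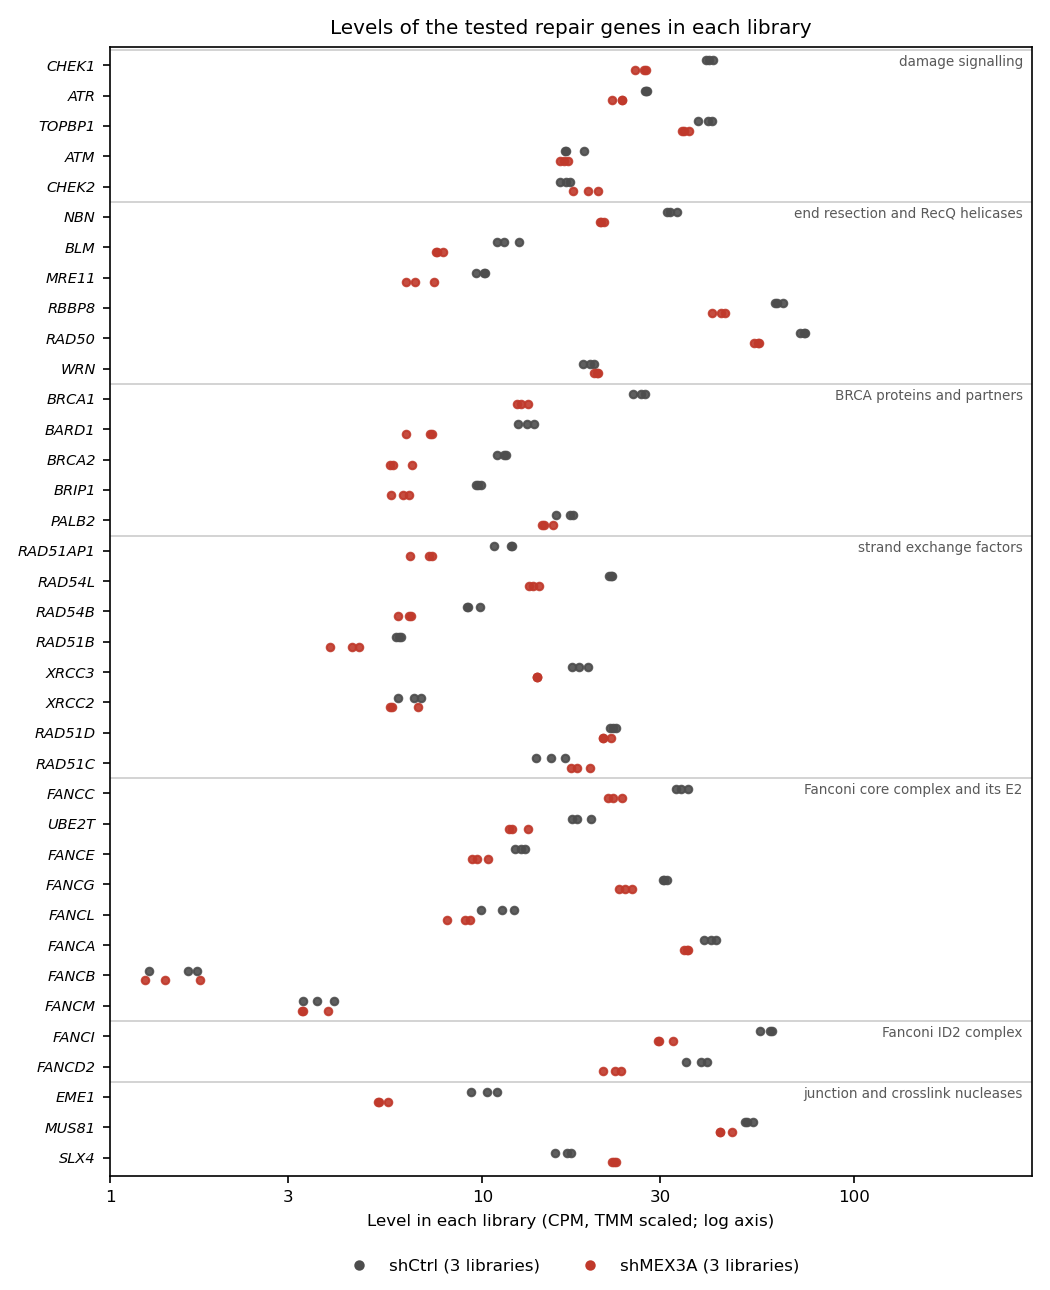
Level of each of the 37 tested repair genes in each library, in CPM on a log axis, grouped by role. Grey points are the 3 shCtrl libraries and red points the 3 shMEX3A libraries. The red points lie wholly to the left of the grey ones for 28 genes, and wholly to the right for SLX4, RAD51C, CHEK2 and, without a call, WRN.

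Promoter sequences were looked at because many of these genes moved the same way. RefSeq promoters (GRCh38.p14, from 250 bases before to 50 bases after a start) were found for 35 of the 39 genes, in 46 entries, some genes having more than 1 start. The E2F letters TTTCCCGC, TTTCGCGC, TTTGCCGC and TTTGGCGC were searched on both strands, since E2F factors drive genes of S phase. Such a match lay in 5 of the 46 entries (10.9%), beside 4.75% of the entries of tested genes and 3.31% of all entries. The 5 windows of 100 bases that hold a match are printed here 5′ to 3′ on the strand of the gene, with the match in capitals. A match is a description of letters and not a shown binding site.
FANCD2, chr3:10026387-10026486, plus strand: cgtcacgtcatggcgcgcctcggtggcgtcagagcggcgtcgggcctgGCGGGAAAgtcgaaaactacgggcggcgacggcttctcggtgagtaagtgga
TOPBP1, chr3:133661895-133661994, minus strand: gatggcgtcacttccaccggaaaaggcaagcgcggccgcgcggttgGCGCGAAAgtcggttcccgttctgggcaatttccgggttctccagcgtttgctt
XRCC2, chr7:152676092-152676191, minus strand: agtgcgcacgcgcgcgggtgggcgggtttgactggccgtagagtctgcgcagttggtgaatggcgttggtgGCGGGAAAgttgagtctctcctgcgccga
FANCC, chr9:95317828-95317927, minus strand: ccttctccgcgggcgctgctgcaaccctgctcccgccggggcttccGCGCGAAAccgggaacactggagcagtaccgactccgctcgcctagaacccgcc
FANCA, chr16:89816766-89816865, minus strand: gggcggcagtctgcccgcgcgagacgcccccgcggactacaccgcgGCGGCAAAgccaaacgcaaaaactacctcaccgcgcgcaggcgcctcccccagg

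Of these 5 genes FANCD2 (-0.75), FANCC (-0.60), FANCA (-0.22) and TOPBP1 (-0.19) fell on the log2 scale, and XRCC2 was not called. By entry, 4 of the 32 entries of genes that fell (12.5%) and 1 of the 14 others (7.14%) held a match. Among the genes with the largest falls, BRCA1, BARD1, BRCA2 and EME1 had no E2F match in any entry, and FANCI had no entry. The matches in FANCD2 and TOPBP1 begin 2 and 7 bases before the start, and the match in XRCC2 begins 21 bases after it. The letters CCAAT, bound by the factor NF-Y, lay on either strand in 22 of the 46 entries (47.8%), beside 34.1% for tested genes and 34.6% for all entries. They were found in 46.9% of the 32 entries of genes that fell and in 50.0% of the 14 other entries. Among the 3 genes that rose, CHEK2 has these letters and SLX4 and RAD51C do not. The letters TTTGAA, the cell cycle homology region of G2 genes, lay in 4 entries (8.70%), beside 10.3% for tested genes and 15.2% for all entries. A window each of BRCA1, the gene with the largest fall, and of CHEK2, a gene that rose, is printed as an example, chosen after the values were seen, with CCAAT or its complement in capitals.
BRCA1, chr17:43125486-43125585, minus strand: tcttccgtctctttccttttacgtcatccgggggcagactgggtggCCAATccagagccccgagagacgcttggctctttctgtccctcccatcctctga
CHEK2, chr22:28741966-28742065, minus strand: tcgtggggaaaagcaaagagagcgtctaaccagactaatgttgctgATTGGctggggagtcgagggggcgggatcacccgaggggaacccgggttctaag

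The BRCA group fell in all 5 members, by unequal amounts. BRCA1, a ubiquitin ligase that steers breaks toward recombination, stood at 25.5, 26.8 and 27.3 CPM in shCtrl and at 12.4, 13.3 and 12.7 CPM in shMEX3A. The lowest control library thus lay far above the highest knockdown library, and the log2 fold change was -1.05 (SE 0.060, adjusted p = 2.71e-18, edgeR). BARD1, its obligate partner in the ligase, was at 12.5, 13.8 and 13.2 CPM against 7.34, 6.22 and 7.23 CPM, a log2 fold change of -0.93 (SE 0.081). The arms of BARD1 do not overlap either. BRCA1 lies on chromosome 17 from 43044295 to 43170245 and BARD1 on chromosome 2 from 214725646 to 214809711, both on the minus strand (GRCh38, GENCODE 29).

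BRCA2, which readies the resected end for strand exchange, measured 10.9, 11.6 and 11.4 CPM in shCtrl and 5.74, 6.45 and 5.64 CPM in shMEX3A. These arms do not overlap, and the log2 fold change was -0.92 (SE 0.083, adjusted p = 1.86e-12, edgeR). The helicase BRIP1, also known as FANCJ, fell by 0.69 on the log2 scale (SE 0.085), from 9.77 ± 0.164 to 6.06 ± 0.356 CPM (SD, n = 3 each). PALB2, the bridge between BRCA1 and BRCA2, went only from 16.8 ± 0.903 to 14.9 ± 0.532 CPM (log2 fold change -0.18, SE 0.064, adjusted p = 0.0114, edgeR). The PALB2 call did not last in 4 of the alternatives: without shCtrl replicate 1 (adjusted p = 0.0570), without shMEX3A replicate 2 (0.0528), with DESeq2 (0.0643) and with offsets for GC content and transcript length (log2 fold change -0.09, adjusted p = 0.218).

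The genes RAD51B, RAD51C, RAD51D, XRCC2 and XRCC3 split. Their 5 products form complexes that assist strand exchange, and of these genes 2 fell, 1 rose and 2 were not called. RAD51B was at 6.06, 5.87 and 5.96 CPM in shCtrl and 4.65, 4.46 and 3.89 CPM in shMEX3A (log2 fold change -0.45, SE 0.10), and XRCC3 went from 18.3 ± 0.935 to 14.0 ± 0.0326 CPM (-0.38, SE 0.063). RAD51C, whose product is found in both of these complexes, was at 16.7, 13.9 and 15.3 CPM in shCtrl and 17.99, 19.5 and 17.3 CPM in shMEX3A. All 3 knockdown libraries lay above all 3 controls, with a log2 fold change of 0.25 (SE 0.067, adjusted p = 0.00105, edgeR). RAD51D (-0.07, SE 0.055) and XRCC2 (-0.09, SE 0.097) had adjusted p values of 0.286 and 0.423, and their arms overlapped.

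The motor proteins and cofactors of strand exchange fell together. RAD54L, a translocase that helps the strand invade the template, was at 22.2, 22.3 and 21.9 CPM in shCtrl and 14.2, 13.7 and 13.4 CPM in shMEX3A. Its replicates lie close and its arms wide apart, at a log2 fold change of -0.68 (SE 0.060, adjusted p = 7.43e-13, edgeR). RAD54B, its paralog, fell by 0.59 (SE 0.085) and RAD51AP1, which stimulates joint molecule formation, by 0.73 (SE 0.082) on the log2 scale. Offsets for GC content and length put RAD51AP1 at -0.47, RAD51B at -0.27 and RAD51C at 0.46, all still called. In GENCODE 29, 76.7% of the exon bases of XRCC3 lie under exons of KLC1 on the opposite strand, 25.1% of those of RAD54L under LRRC41 on the opposite strand, and 59.1% of those of RAD54B under FSBP on the same strand. KLC1 (0.31) and LRRC41 (0.32) rose on the log2 scale, and FSBP was at 0 counts.

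End resection genes fell in all but 1 case. The MRN complex, which binds and tethers broken ends, consists of MRE11, RAD50 and NBN. NBN was at 31.97, 31.4 and 33.3 CPM in shCtrl and 21.2, 20.7 and 20.9 CPM in shMEX3A (log2 fold change -0.62, SE 0.052, adjusted p = 1.74e-13, edgeR). RAD50 went from 72.8 ± 1.26 to 54.7 ± 1.01 CPM (-0.41, SE 0.037) and the nuclease MRE11 from 9.96 ± 0.325 to 6.75 ± 0.605 CPM (-0.56, SE 0.084), so the mRNA of all 3 subunits was lower. RBBP8, known as CtIP, which starts resection with MRN, was at 62.1, 64.2 and 61.2 CPM in shCtrl and 43.9, 44.9 and 41.3 CPM in shMEX3A (-0.52, SE 0.041). In GENCODE 29, 79.7% of the exon bases of RAD50 lie under another annotated gene on the same strand, and that gene has no row in the table under its name.

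The RecQ helicases BLM and WRN, both mutated in genome instability syndromes, differed. BLM, which unwinds ends for resection and dissolves joint molecules, had 11.7 ± 0.831 CPM in shCtrl against 7.62 ± 0.172 CPM in shMEX3A (log2 fold change -0.62, SE 0.079, adjusted p = 1.01e-08, edgeR). WRN was at 18.6, 19.5 and 19.95 CPM in shCtrl and at 20.5, 19.96 and 20.3 CPM in shMEX3A. Its knockdown libraries sat just above its controls, at 0.06 on the log2 scale (SE 0.057, adjusted p = 0.322), and only the fit with GC and length offsets called it (0.18, adjusted p = 0.00341).

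Among the damage signalling genes CHEK1 stood out. CHEK1, the effector kinase downstream of ATR, was at 41.8, 40.0 and 40.8 CPM in shCtrl and 27.5, 27.2 and 25.7 CPM in shMEX3A. The arms lay far apart, with a log2 fold change of -0.61 (SE 0.048, adjusted p = 3.59e-14, edgeR). CHEK2, the effector kinase downstream of ATM, was at 16.2, 17.2 and 16.7 CPM in shCtrl and 19.2, 20.5 and 17.5 CPM in shMEX3A, so the lowest knockdown library was just above the highest control (0.20, SE 0.063, adjusted p = 0.0064). The CHEK2 call was lost without shMEX3A replicate 2 (0.14, adjusted p = 0.0841), while with GC and length offsets its log2 fold change was 0.38. CHEK2 has near copies elsewhere in the genome, so its reads may be split or left out of the counts. The table's row for the copy CHEK2P2 was at 0 in all 6 libraries. The same limit holds for BRCA1 and FANCD2, whose copies were looked for and had no row under their names.

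The upstream kinases moved little. ATR had a mean of 27.5 ± 0.163 CPM in the controls against 23.2 ± 0.799 CPM after knockdown, a log2 fold change of -0.25 (SE 0.052), and its activator TOPBP1 fell by 0.19 (SE 0.046), and with GC and length offsets these were -0.16 and -0.11, still called. ATM had 16.8, 16.6 and 18.7 CPM in shCtrl and 17.0, 16.2 and 16.6 CPM in shMEX3A. The ATM arms overlapped, at -0.07 (SE 0.063, adjusted p = 0.328, edgeR). ATRIP, the partner that recruits ATR, had only 1 to 6 reads in any library and was not tested. The RefSeq table (GRCh38.p14) places the readthrough gene ATRIP-TREX1 over 99.8% of the span of ATRIP, and that row had 0 to 4 reads per library, while TREX1 had 0 in all 6. Whether reads over these shared exons were left out of the counting was not tested.

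Both genes of the ID2 complex, the pair that receives ubiquitin in the Fanconi pathway, fell. FANCI was at 55.7, 60.0 and 59.4 CPM in shCtrl and at 32.6, 29.7 and 29.8 CPM in shMEX3A, a log2 fold change of -0.92 (SE 0.045, adjusted p = 3.13e-20, edgeR). FANCD2, which forms a clamp around DNA with FANCI, was at 35.4, 38.7 and 40.1 CPM in shCtrl and at 23.6, 22.7 and 21.2 CPM in shMEX3A (-0.75, SE 0.054). Neither gene had overlapping arms. UBE2T, the conjugating enzyme that passes ubiquitin to this pair, went from 18.3 ± 1.11 to 12.4 ± 0.813 CPM (-0.56, SE 0.068), and FANCL, the ligase that works with it, from 11.2 ± 1.13 to 8.77 ± 0.635 CPM (-0.33, SE 0.082). With GC and length offsets the UBE2T value was -0.32, and the FANCL call was lost (-0.04, adjusted p = 0.652). Exons of VRK2 on the opposite strand, itself lower by 0.30 on the log2 scale, cover 18.7% of the exon bases of FANCL.

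Of the 9 genes for the core complex and UBE2T, 6 fell, 2 were not called and 1 was not tested. FANCC was at 34.2, 35.8 and 33.2 CPM in shCtrl and 23.8, 22.5 and 21.8 CPM in shMEX3A (log2 fold change -0.60, SE 0.052). Its partner FANCE went from 12.7 ± 0.363 to 9.80 ± 0.506 CPM (-0.37, SE 0.073), and in the module of FANCA and FANCG the falls were 0.22 (SE 0.045) and 0.35 (SE 0.051) on the log2 scale. FANCA was at -0.38 with GC and length offsets, and 23.6% of its exon bases lie under ZNF276 on the opposite strand. FANCB (1.54 ± 0.235 and 1.46 ± 0.256 CPM) and the translocase FANCM (3.63 ± 0.353 and 3.47 ± 0.322 CPM) were the most weakly expressed genes tested, and their SEs of 0.20 and 0.13 were the largest. Their adjusted p values were 0.784 and 0.666, and their arms overlapped. FANCF, an adaptor of the core complex, was listed at 0 in all 6 libraries, in a line that expresses the other core genes. Of the exon bases of FANCF, 11.3% lie under GAS2 on the opposite strand. GAS2 had a mean of 0.0312 CPM in shCtrl and 0.0911 CPM in shMEX3A. If the reads of FANCF were countable, 3 counts would allow up to 0.0865 CPM in the shallowest library, for counting error only. Whether they were countable was not tested.

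The nuclease genes went in different directions. SLX4, the scaffold that gathers structure-specific nucleases at crosslinks and is also known as FANCP, was at 17.3, 15.7 and 16.9 CPM in shCtrl and at 22.9, 22.5 and 22.4 CPM in shMEX3A. Every knockdown library was well above every control, with a log2 fold change of 0.44 (SE 0.058, adjusted p = 2.26e-08, edgeR). EME1 was at 10.3, 11.0 and 9.33 CPM in shCtrl and at 5.59, 5.29 and 5.25 CPM in shMEX3A (-0.92, SE 0.088), while its catalytic partner MUS81 went from 51.9 ± 1.21 to 44.6 ± 1.89 CPM (-0.22, SE 0.042). With GC and length offsets SLX4 was at 0.21 and MUS81 at -0.34, both still called. Exons of LRRC59 on the opposite strand cover 16.4% of the exon bases of EME1, and exons of CFL1 on the opposite strand 13.9% of those of MUS81.

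**Figure D2:**
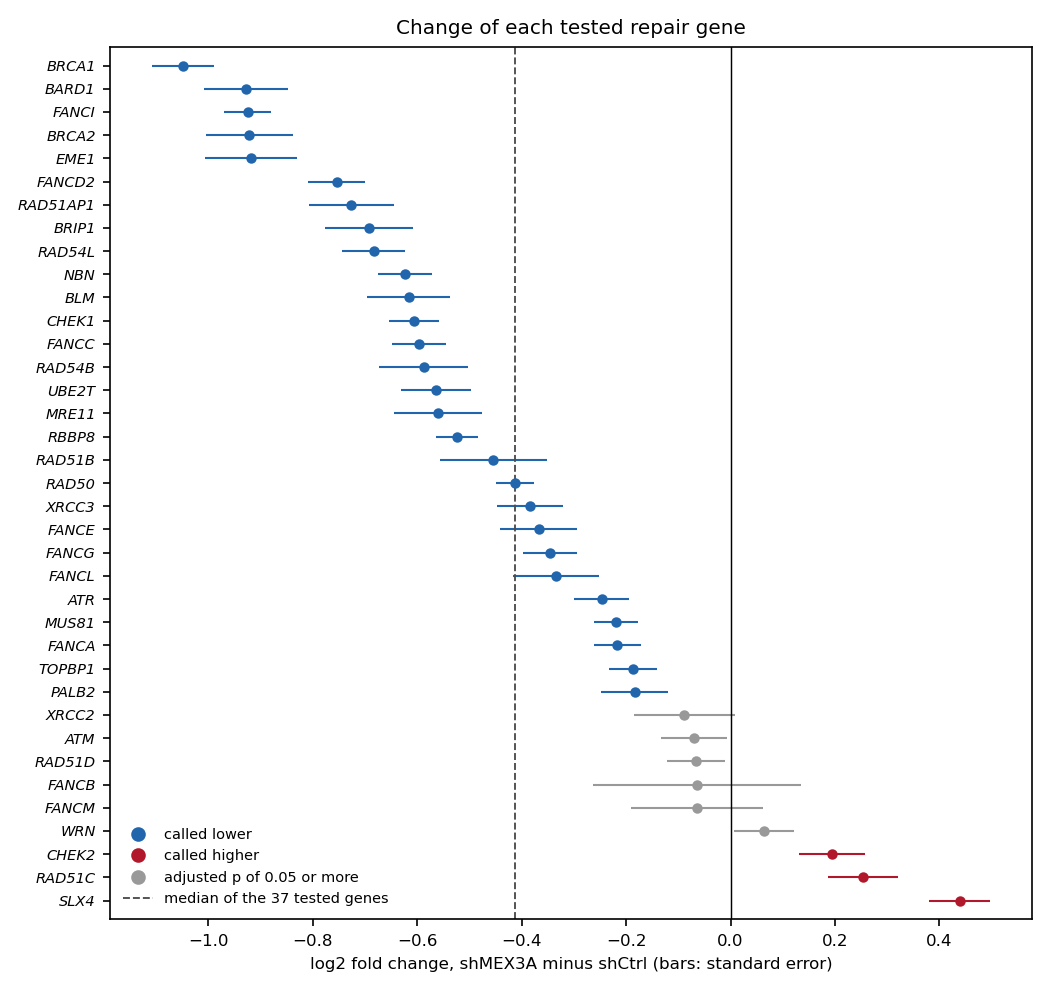
The log2 fold change of each of the 37 tested repair genes, shMEX3A minus shCtrl, with bars of 1 standard error, ordered from the largest fall to the largest rise. Blue marks the 28 genes called lower, red the 3 called higher and grey the 6 not called, and the dashed line is the median of -0.41.

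Ratios of read counts between partner genes within a library do not depend on scaling, and 9 pairs, listed after the data were in hand, were compared. A pair of ATRIP and ATR was dropped after the few reads of ATRIP were seen. With 3 libraries against 3 the exact two-sided permutation test cannot go below p = 0.1, so no pair could pass 0.05. The BRCA1 to BARD1 ratio was 2.02 ± 0.0643 in shCtrl and 1.86 ± 0.238 in shMEX3A (SD, n = 3 each, exact p = 0.4, 0.45 after adjustment over the 9 pairs), and the arms overlapped. The NBN to MRE11 ratio was 3.23 ± 0.0818 and 3.12 ± 0.245 (exact permutation p = 0.6), and the RAD50 to MRE11 ratio 7.31 ± 0.117 and 8.17 ± 0.857 (exact permutation p = 0.3). In these complexes the arms overlapped, which does not show that the ratios were equal. RAD54L per RAD54B (exact permutation p = 0.2) and UBE2T per FANCL (exact permutation p = 0.2) overlapped as well.

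In 4 pairs the libraries of the arms did not overlap, each at the smallest p of 0.1 (0.225 adjusted). EME1 per MUS81 went from 0.197 ± 0.0203 to 0.121 ± 0.00806, and BRCA2 per PALB2 from 0.674 ± 0.050 to 0.401 ± 0.0417. CHEK1 per CHEK2 was at 2.58, 2.32 and 2.44 in shCtrl and at 1.43, 1.33 and 1.47 in shMEX3A. For these pairs 1 partner was lower by 0.70 to 0.79 on the log2 scale relative to the other. FANCD2 per FANCI moved the other way and less, from 0.652 ± 0.0208 to 0.732 ± 0.028, since FANCI fell more than FANCD2.

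**Figure D3:**
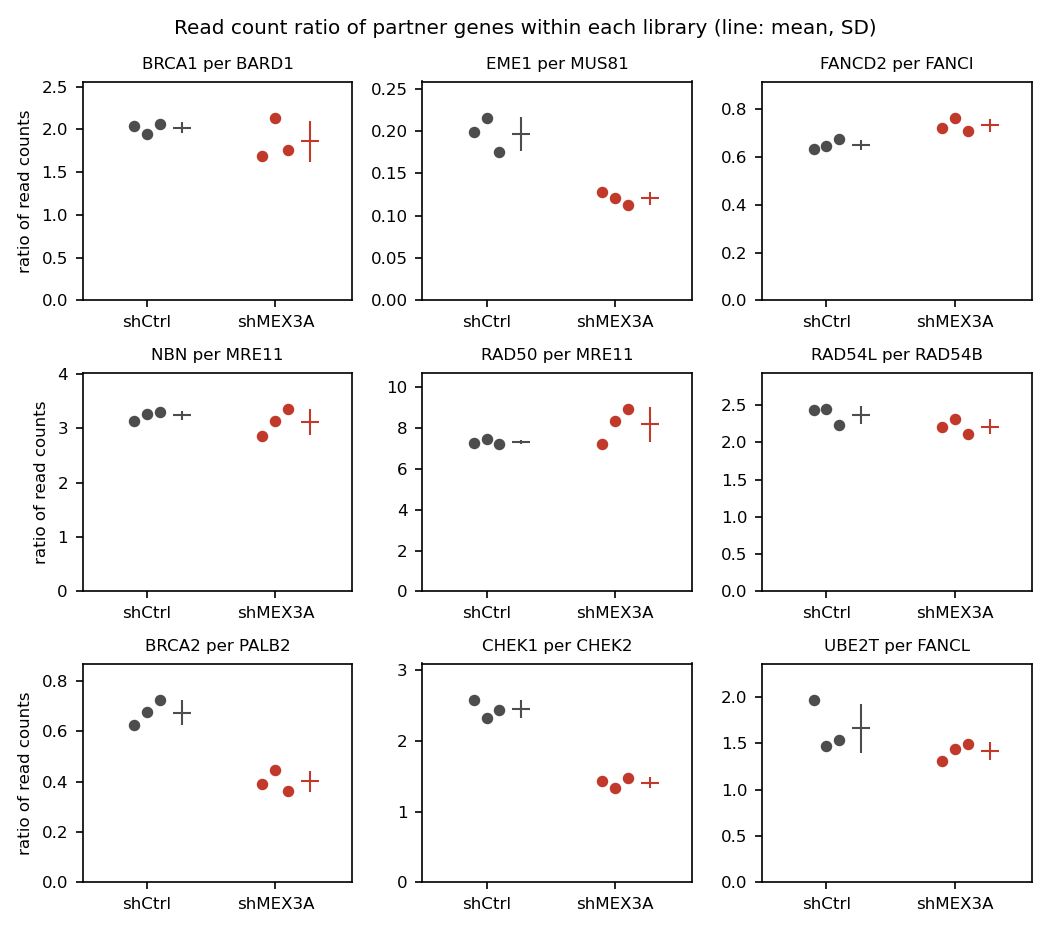
Read count ratio of 9 pairs of partner genes in each library, on axes that start at 0, with the mean and SD beside the points of each arm. The points of the arms are apart for EME1 per MUS81, BRCA2 per PALB2, CHEK1 per CHEK2 and FANCD2 per FANCI, and overlap for the other 5 pairs.

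Levels per kilobase of transcript order the genes by abundance, with the longest coding transcript of GENCODE 29 as the length. The values depend on that choice of transcript. Reads of overlapping genes cannot be told apart, and 79.7% of the exon bases of RAD50 lie under another gene. The part of either in the order was not tested. Among the 37 tested genes the highest in shCtrl were MUS81 (21.7 CPM per kb), UBE2T (20.2) and RBBP8 (19.0), and the lowest were BRCA2 (0.945) and FANCB and FANCM (0.510 and 0.511). Of the ligase partners BRCA1 had 3.65 and BARD1 2.39 CPM per kb, and of the MRN complex RAD50 had 8.77, NBN 6.91 and MRE11 1.45 CPM per kb. After depletion BRCA2 was at 0.496 and BRCA1 at 1.76 CPM per kb. Of the genes that rose, SLX4 was at 2.28, RAD51C at 5.91 and CHEK2 at 8.49 CPM per kb in shCtrl.

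Other genes of the same pathways, taken from lists chosen by function, were called lower more often than higher in each of 6 lists. These counts stand beside 35.6% lower and 34.0% higher over all genes tested, and the end joining list lies near that share of lower calls. Among 15 further Fanconi factors 10 of the 14 tested fell and 2 rose (median -0.68). USP1, which removes ubiquitin from FANCD2, stood at 55.7 ± 2.48 CPM against 26.3 ± 2.05 CPM, a log2 fold change of -1.08 (SE 0.050), and the ligase RFWD3 went from 90.3 ± 1.95 to 51.0 ± 0.462 CPM (-0.82, SE 0.037). The core complex subunits FAAP100 (0.65, SE 0.044) and FAAP20 (0.56, SE 0.049) rose. FAN1 (0.02) and ERCC1 (0.06) were not called. USP1 and RFWD3 act on FANCD2 and at the fork, respectively, while FAAP100 and FAAP20 belong to the core complex.

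Of 17 further regulators of strand exchange 8 of the 16 tested fell and 2 rose (median -0.14). FIGNL1, an ATPase that restrains strand exchange, went from 15.2 ± 0.295 to 10.4 ± 0.490 CPM (-0.55, SE 0.069), and SFR1, a mediator of it, fell by 0.77 (SE 0.14) on the log2 scale. RAD52, which anneals single strands, rose by 0.35 and the helicase FBH1 by 0.11 on the log2 scale. Of 14 genes for strand binding, resection and dissolution 9 of the 12 tested fell and 2 rose (median -0.37). The helicase RECQL changed by -1.73 (SE 0.063) and the nuclease EXO1 by -1.28 (SE 0.060), while EME2, which can replace EME1 beside MUS81, rose by 0.47 and RPA1, the large subunit of the strand-binding complex RPA, by 0.13. RECQL5 was not called (0.04, SE 0.061).

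Of 14 checkpoint clamp, adaptor and fork genes 11 fell and 2 rose (median -0.30), with RAD17 not called (0.10, SE 0.055). CLSPN, the adaptor through which ATR activates CHEK1, went from 32.2 ± 0.966 to 17.4 ± 0.537 CPM (-0.89, SE 0.054) and the phosphatase CDC25C fell by 1.52, while the clamp subunit HUS1 rose by 0.46 and the kinase WEE1 by 0.11. Of 15 genes of the chromatin response at breaks 8 of the 14 tested fell and 3 rose (median -0.33), led by the ligase RNF168 (-0.84, SE 0.054) and BABAM2 (-0.65) among the falls and SHLD2 of shieldin (0.31) and the scaffold MDC1 (0.18) among the rises. TP53BP1, which favours end joining, was not called (-0.06, SE 0.031), though its knockdown libraries all lay below its controls. The shieldin genes SHLD1 (0.04, adjusted p = 0.860, edgeR) and SHLD3 were not called either. SHLD3 was at -0.70 (SE 0.32, adjusted p = 0.0508, edgeR), with arms that did not overlap at levels under 1 CPM.

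End joining, the other main route of break repair, had the median nearest 0 among these 6 lists, with 5 of 13 genes lower, 2 higher and a median of -0.06. The Ku subunits were at 612 ± 13.8 and 593 ± 6.89 CPM for XRCC5 and at 645 ± 2.55 and 647 ± 11.2 CPM for XRCC6, neither called. PARP1 (-0.05) and LIG3 (0.02) were not called either, though the knockdown libraries of PARP1 all lay below its controls. The 5 genes that fell were NHEJ1, from 38.1 ± 0.358 to 17.4 ± 0.845 CPM (-1.12, SE 0.052), POLQ, the polymerase of microhomology-mediated joining (-0.64), LIG4 (-0.37), DCLRE1C (-0.27) and PAXX (-0.18). The kinase PRKDC rose by 0.10 and the polymerase POLM by 0.38 on the log2 scale. Whether the recombination genes differ from the end joining genes was not tested.

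Markers of dividing cells were mostly lower as well. Of 20 proliferation markers 19 fell and 0 rose (median -0.63), beside 35.6% lower and 34.0% higher over all genes tested. The summed level of these markers was 2550 to 2583 CPM in shCtrl and 1664 to 1712 CPM in shMEX3A. CENPF was at -1.18 and TOP2A at -0.95 on the log2 scale, and MCM2, a subunit of the replicative helicase, was not called (-0.00, SE 0.032). Of the 5 E2F factors the activators E2F2 (-1.71, SE 0.064) and E2F1 (-0.47) and the repressor E2F8 (-1.40) fell, while the repressor E2F7 (1.05) and the activator E2F3 (0.44) rose. The part of cell division in the fall of the repair genes was not tested.

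**Figure D4:**
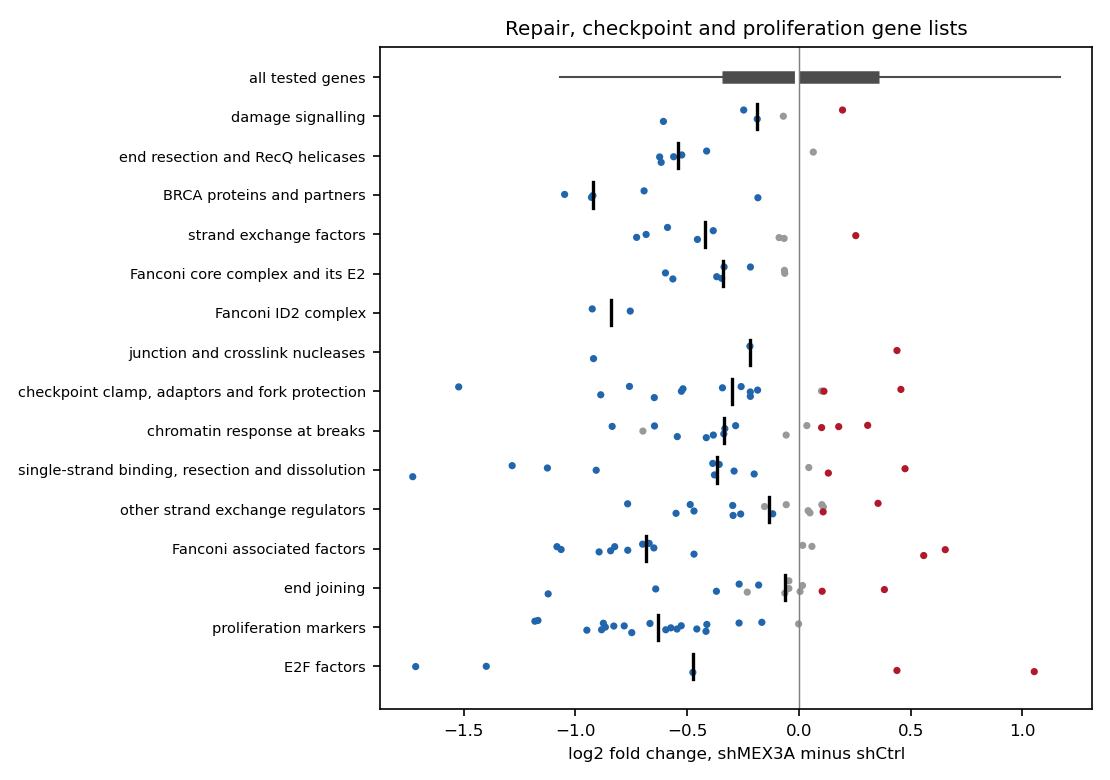
The log2 fold change, shMEX3A minus shCtrl, of each tested gene in the 7 role groups of the repair set and in 8 related lists, with a black line at each median. Blue points are genes called lower, red higher and grey not called, and the bar at the top gives all 15679 tested genes from the 5th to the 95th percentile (-1.07 to 1.17), thick between the quartiles (-0.35 and 0.36). The medians run from -0.92 for the BRCA group to -0.06 for end joining.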

How the data were processed

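Messenger RNA libraries (KAPA kit) were sequenced from 6 samples. The authors deposited raw read counts per gene, made against GRCh38. The tools named, per the submitters' processing notes, are HTSeq 2.0.4, STAR, edgeR 4.0.16 and fastp 0.20.0. For the annotation and the strand setting, not given in the sources used here, nothing was assumed, so reads of overlapping genes cannot be told apart. From the counts, R 4.3.3 with edgeR 4.0.16 tested shMEX3A against shCtrl over the 15679 genes kept by filterByExpr, with TMM scaling, a robust quasi-likelihood fit and Benjamini-Hochberg adjustment at 0.05. The SE was taken from the F statistic. CPM values carry the SD over 3 libraries. Within an arm, libraries varied beyond sampling noise (chi-square per degree of freedom 2.69 to 6.15), so none was counted as a duplicate.

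The set, the lists and the tests were chosen with earlier results of these data known. Every one of the 39 genes is accounted for. Items outside the 39 genes were taken out of the related and marker lists after testing and are not reported here, and the fits and adjusted p values are unaffected. In each related list the named genes are the 2 called genes with the smallest p in each direction, and further genes, among them those in the closing section and some not called, were chosen after their values were seen. Overlaps and lengths came from GENCODE 29, promoters from RefSeq. Alternatives were other scalings (DESeq2 1.42.0 size factors, upper quartile), other low-count filters, DESeq2, limma 3.58.1 voom, a replicate block, each library left out, and offsets for GC content and length (natural splines with 5 degrees of freedom, 14479 genes, all 37 tested repair genes among them). The edgeR test was tried on simulated counts with known changes in a small share of the genes, as many up as down. In the data 69.7% of the genes tested were called, a setting that the simulation does not cover. The test missed the limit on false calls set for it at first. Among its simulated calls the share of false ones was above the nominal rate. No fault was found in the script, and the pass criterion was then replaced, after that result was seen, by the share of unchanged genes with a small unadjusted p together with the recovery of changed genes, which it met. Calls near the threshold are therefore less certain than their adjusted p states. Tables were made in Python 3.11.15.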

Additional observations from a re-analysis of the deposited data

How the results depend on the processing

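In all alternatives 26 to 28 of the repair genes were called lower and 2 to 4 higher. Leaving out 1 library gave 27 to 28 lower and 2 to 3 higher. DESeq2 called 27 lower and 3 higher. GC and length offsets called 26 lower and 4 higher, and the same genes without offsets, an alternative added after seeing the data, gave 28 and 3. The median log2 fold change of the set lay between -0.43 and -0.38, and that of all genes between -0.01 and 0.01. Of 555 values for single genes, 548 kept their direction and side of the threshold or were not called either way, 6 lost the call (PALB2 in 4, CHEK2 and FANCL in 1 each), 1 gained it (WRN) and 0 called values changed sign. The uncalled FANCB, FANCM and XRCC2 changed sign under some settings. MEX3A ranged from -1.86 to -1.68. Same-numbered libraries showed no clear shared deviation from their arm means, with correlations of -0.03, 0.08 and -0.08. The best match of a library had its own number for 2 of 6. With 3 libraries in each arm, these values cannot show whether same-numbered libraries were handled together. Under the replicate block 28 repair genes were lower and 3 higher, and 5504 genes were lower and 5247 higher in all. Depth limits FANCB and FANCM, with 42 to 181 reads a library. ATRIP and FANCF had too few counts for a test, and the cause was not tested.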

Other observations

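Subunits of the same assembly outside the repair set had unlike values in several cases, whose differences were not tested. These examples were chosen after their values were seen. For single genes the alternatives were read only for MEX3A and the repair genes. Values of genes outside the set were thus not checked with GC and length offsets. ERCC4, the catalytic subunit of the crosslink nuclease XPF-ERCC1, was called lower at a log2 fold change of -1.06 (SE 0.067). By contrast, ERCC1 was at 0.06 (SE 0.037) with an adjusted p of 0.162 (edgeR). Exons of genes on the opposite strand cover 25.7% of the exon bases of ERCC4 and 28.6% of those of ERCC1. RPA3, the smallest subunit of the strand-binding complex, was at -1.13 (SE 0.11), RPA2 at -0.20 (SE 0.037) and RPA1 at 0.13 (SE 0.031), all called. FAAP24, the partner of FANCM, was at -0.89 (SE 0.12), while FANCM itself was not called. WDR48, the cofactor of USP1, fell with it, by 0.77 (SE 0.043) on the log2 scale. Of the 4 RecQ helicases in the lists used here RECQL (-1.73) and BLM (-0.62) fell, and WRN (0.06) and RECQL5 (0.04) were not called.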
